A study of Mus musculus with 11 samples.

Results

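Among the 754 genes of the panel, 30 carry a symbol that begins with Il and a digit, once Il1a, Il1b, Il1rn, Il1rl1 and Il18 are set aside. They are called interleukin genes here. They comprise 16 ligands, 13 receptor chains and Il4i1, an amino acid oxidase named for its induction by IL-4. The members were found by symbol, and this choice was made with earlier results of these data known. Their transcripts were counted in F4/80+CD11b+ macrophages sorted from the peritoneal cavity of 11 female C57BI/6 mice aged 6 to 8 weeks. The mice received PBS or IL-4c, a complex of IL-4 with an antibody against it, into the peritoneum on days 0 and 2, and cells were sorted on day 4. Rα+/+ mice were wild-type, and RαTd/Td mice carried a TdTomato reporter on both alleles in place of exons of Retnla, the gene for RELMα, in all cells of the body and throughout life. Mice 1 and 2 were Rα+/+ and received PBS, as did the RαTd/Td mice 3 and 4. IL-4c was given to the Rα+/+ mice 5, 6 and 7 and to the RαTd/Td mice 9, 10, 11 and 12. Each column of values is 1 mouse, numbered as in the labels. A further Rα+/+ mouse given IL-4c, whose expression grouped with that of the PBS-treated mice, was removed by the study and not analysed here. The study also found less RELMα in its peritoneal fluid and fewer peritoneal cells. It named failed delivery of IL-4c as the likely reason. Separations between treatments and the spread of the Rα+/+ mice after IL-4c therefore describe the mice that were kept.

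Interleukins are secreted proteins with which leukocytes and tissue cells instruct one another, and a cell responds to them through paired receptor chains at its surface. Most class I and class II cytokine receptors, such as those for IL-4, IL-6, IL-10 and IL-3, signal through Janus kinases and STAT transcription factors, whereas receptors of the IL-1 family and of IL-17 signal through adaptor proteins to NF-kB. Peritoneal macrophages carry many of these receptors, and IL-4 acting through IL-4Rα and STAT6 drives their alternative activation and proliferation.

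Retnla, the targeted gene, was at the floor in 6 of 6 RαTd/Td mice and above it in 5 of 5 Rα+/+ mice, between 4141 and 4631 normalized counts after PBS and between 115675 and 171588 after IL-4c. The macrophage genes Adgre1, which encodes F4/80, and Itgam, which encodes CD11b, were between 5897 and 10617 and between 7780 and 11245 normalized counts in all 11 mice. Of the 10 macrophage markers listed, 9 were on the panel, and several were lower with IL-4c, as given beside the receptor chains. The counts behind the values of the panel summed to 268858 to 574505 per mouse over the genes above the floor. Values under 30 counts or under 30 normalized counts had been set to a floor of 30, and the lowest measurable level was therefore between 30.47 and 56.34 normalized counts, depending on the mouse. Fewer cells of a type and less RNA per cell cannot be told apart in such sorted bulk samples. Probes differ in efficiency, so levels are compared between mice and not between genes.

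Of the 30 genes, 10 were above the floor in at least 1 mouse and 20 were at the floor in all 11. The receptor chains made up 9 of the 10, and Il6 was the ligand. The ligands at the floor in every mouse were Il2, Il4, Il9 and Il15 of the common gamma chain family, the type 2 and alarmin cytokines Il5, Il13, Il25 and Il33 together with Il3, the IL-12 family subunits Il12a, Il12b, Il23a and Il27, and Il10 and Il22. Il4i1 and the receptor chains Il1r2, Il5ra, Il18r1 and Il21r were also at the floor throughout. For these 20 genes the values give an upper limit of the lowest measurable level in each mouse and no level. In all 11 mice 7 of the 10 detected genes exceeded the floor, namely Il4ra, Il15ra, Il6ra, Il10ra, Il17ra, Il3ra and Il1rap. Il6 was above it in 7 mice, Il27ra in 6 and Il1r1 in 2. All 10 had a mean above 30 normalized counts and were tested with limma beside the other genes of the panel, 445 in all.

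The 250 bases before the RefSeq transcription start (GRCm38.p6, 5′ to 3′ on the gene's strand) are given for Il6, the member that rose with IL-4c, and for Il4ra and Il6ra, receptor chains that fell in both genotypes. Il6 lies at chr5:30013114-30019975, Il4ra at chr7:125552271-125579474 and Il6ra at chr3:89869324-89913196. Capitals mark motif matches.
Il6, chr5:30012864-30013113 (+): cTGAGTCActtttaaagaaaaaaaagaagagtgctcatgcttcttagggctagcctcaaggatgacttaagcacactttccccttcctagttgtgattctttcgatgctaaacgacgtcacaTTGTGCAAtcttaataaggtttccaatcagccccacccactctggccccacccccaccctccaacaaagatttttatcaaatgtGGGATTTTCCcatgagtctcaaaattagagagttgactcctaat
Il4ra, chr7:125552021-125552270 (+): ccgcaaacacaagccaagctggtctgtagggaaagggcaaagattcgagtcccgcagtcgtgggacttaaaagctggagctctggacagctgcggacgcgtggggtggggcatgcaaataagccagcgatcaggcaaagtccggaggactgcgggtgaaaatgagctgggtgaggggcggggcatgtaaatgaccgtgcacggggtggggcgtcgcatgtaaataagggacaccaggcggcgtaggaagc
Il6ra, chr3:89913197-89913446 (-): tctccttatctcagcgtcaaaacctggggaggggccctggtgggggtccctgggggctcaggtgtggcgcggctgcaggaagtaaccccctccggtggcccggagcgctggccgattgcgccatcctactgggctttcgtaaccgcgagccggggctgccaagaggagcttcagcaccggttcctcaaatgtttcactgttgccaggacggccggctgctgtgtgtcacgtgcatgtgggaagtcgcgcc

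The motif of STAT factors, TTC and GAA with 3 or with 4 bases between them, was searched on both strands. It was in none of the 9 windows that RefSeq gave for 7 of the 10 detected genes, while 7.02% and 5.85% of all 32851 windows of this length held the 2 forms. No window was found for Il10ra, Il17ra or Il27ra. The other motifs were added after the sequences had been seen. In the Il6 window the AP-1 motif TGANTCA lay at bases -249 to -243 from the start, the C/EBP motif (TT and GCAA with 2 bases between) at -128 to -121 and the NF-kB motif (GGGA and TTTCC with 1 base between) at -44 to -35. These 3 motifs were in 6.75%, 9.56% and 0.356% of all windows, in that order. The AP-1 motif was in 2 of the 9 windows (Il6 and 1 of Il15ra), the C/EBP motif in 3 (Il6, Il3ra and 1 of Il1r1) and the NF-kB motif in 1. Neither the Il4ra nor the Il6ra window held any of them, whereas that of Il3ra, which also fell, held 1. The Il4ra and Il6ra windows held 17 and 18 CpG dinucleotides and the Il6 window 3, against a median of 6 over all windows. A match in these windows describes letters and is not evidence of binding.

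IL-6 is a pleiotropic cytokine made by activated macrophages and many other cells. Il6 was at the floor in mice 1, 2, 3 and 4, the full set that received PBS. After IL-4c it was 157, 177 and 204 normalized counts in the Rα+/+ mice 5, 6 and 7, from 137, 146 and 176 counts. In the RαTd/Td mice 9, 10, 11 and 12 it was 217, 194, 126 and 81.5 normalized counts, from 228, 188, 117 and 71 counts. Every IL-4c-treated mouse was therefore above every PBS-treated mouse, with means of 179 ± 23.7 (SD, n = 3) and 155 ± 62.3 (SD, n = 4) in Rα+/+ and RαTd/Td mice. Set against the lowest levels measurable in the PBS-treated mice, Il6 was at least 4.63-fold higher with IL-4c in Rα+/+ mice and at least 2.57-fold higher in RαTd/Td mice. These bounds were not themselves tested. The fitted log2 fold changes were 2.53 (SE 0.35, limma adjusted p = 0.000316) and 2.23 (SE 0.33, limma adjusted p = 0.000469). They take the floor as the level after PBS and so depend on it. With a single floor at the highest of the lowest measurable levels the fitted changes were 1.65 and 1.34 (limma adjusted p = 0.0043 and 0.00823) and remained past the threshold.

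The IL-4c-treated RαTd/Td mice were spread further in Il6 than the Rα+/+ mice. The exact Poisson 95% intervals, which cover counting error only, were 190 to 247 normalized counts in mouse 9 and 63.6 to 103 in mouse 12 and did not overlap. Relative to Il6ra in the same mouse, a ratio that is free of the scaling between mice, Il6 was 0.571, 0.545 and 0.804 in mice 5, 6 and 7 and 0.745, 0.558, 0.301 and 0.230 in mice 9, 10, 11 and 12. Ccr2, a marker of monocytes, was 61.9, 102, 139 and 464 normalized counts in mice 9, 10, 11 and 12, and its part in the spread was not tested. Itgax and Flt3, listed with it for monocytes, small peritoneal macrophages or dendritic cells, were at the floor in all mice. The genotypes differed by -0.30 on the log2 scale in Il6 after IL-4c (95% interval -0.96 to 0.35, limma adjusted p = 0.579), which is within the spread between mice.

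**Figure D1:**
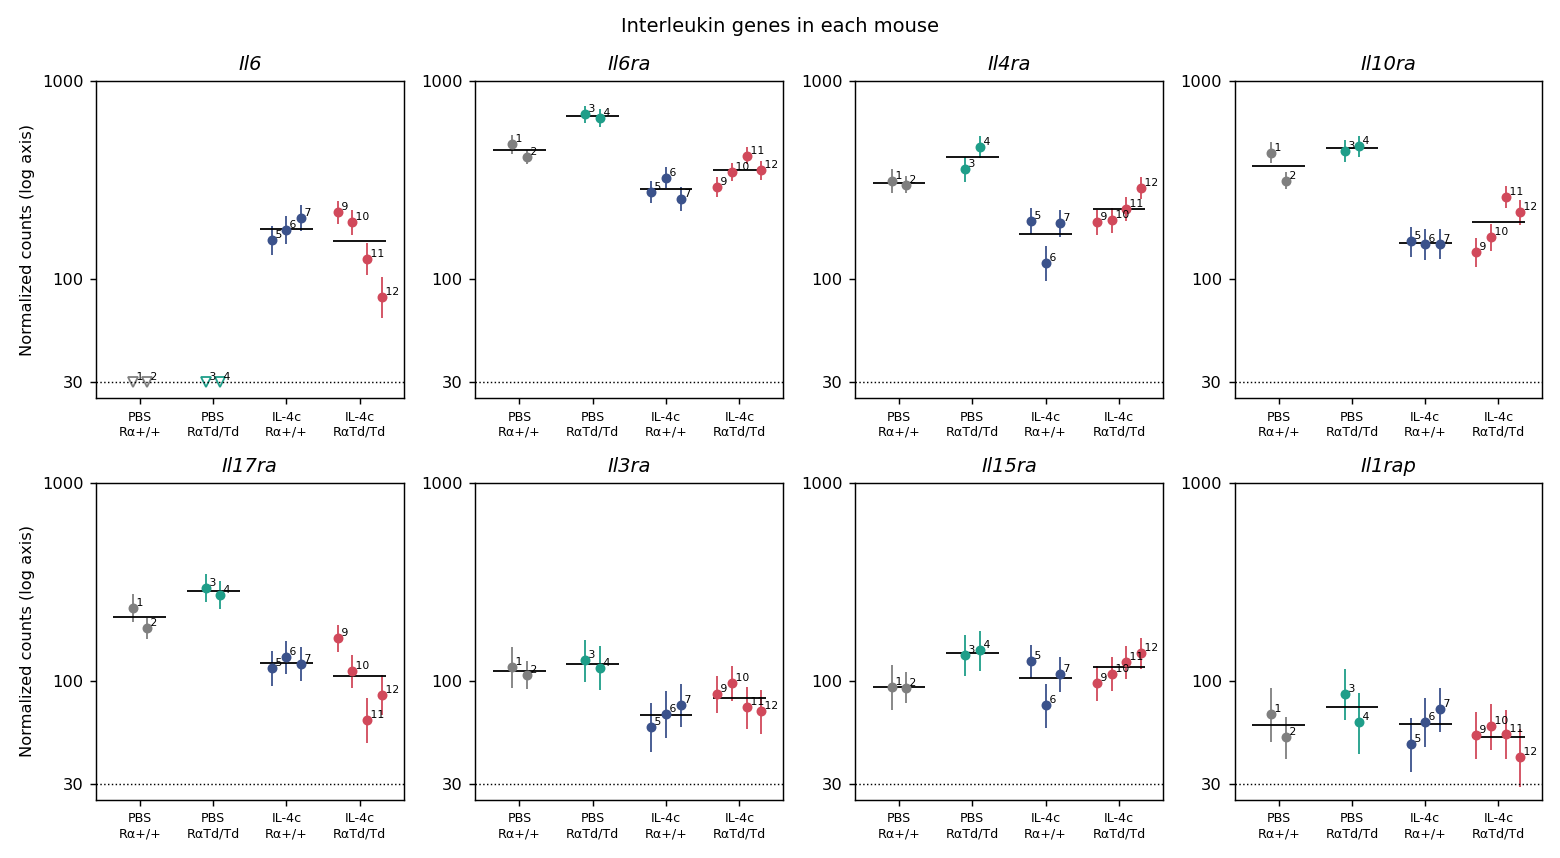
Normalized counts on a log axis of the 8 interleukin genes that were above the floor in every mouse of at least 1 group, in 4 groups of mice. Points are single mice with their numbers, vertical lines exact Poisson 95% intervals, black bars group means, open triangles values at the floor and the dotted line the floor of 30. Il6 is at the floor in the 4 PBS-treated mice and ranges from 81.5 to 217 in the 7 mice given IL-4c. Il10ra, Il4ra, Il17ra and Il3ra are lower in all 7 IL-4c-treated mice than in the 4 PBS-treated mice. How many of all tested genes separate in this way was not counted.

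With the housekeeping scaling of the deposited values, transcripts of receptor chains for IL-10, IL-6, IL-4 and IL-3 were lower after IL-4c in both genotypes. In Rα+/+ mice 4 of the 10 tested interleukin genes fell (Il10ra, Il4ra, Il3ra and Il6ra), 1 rose (Il6) and 5 were not called at an adjusted p of 0.05 or less. Over all 445 tested genes 46.3% were called, 32.4% lower and 13.9% higher. In RαTd/Td mice 5 of 10 fell (the same 4 and Il17ra), 1 rose and 4 were not called. There 51.9% of all genes were called, 36.6% lower and 15.3% higher. How many of all tested genes separated fully between PBS-treated and IL-4c-treated mice was not counted. The median log2 fold change was -0.18 and -0.23 over all genes in Rα+/+ and RαTd/Td mice. Centring each mouse on its median gene, taken over the genes above the floor in every mouse, moved these medians to 0.11 and 0.10. Values said to be relative to the median gene are something else. They are fold changes less the median over all tested genes, without a new fit. With each mouse centred, 2 genes were called lower (Il10ra and Il4ra) and 2 higher (Il6 and Il1r1) in Rα+/+ mice. In RαTd/Td mice 4 were called lower (Il10ra, Il17ra, Il4ra and Il6ra) and 1 higher. Il1r1 was at the floor in every PBS-treated mouse and in mouse 7. Centring moves such floor values by an amount that differs between mice, so the Il1r1 call does not show a rise. With quantile normalization 1 gene was called lower (Il10ra) and 1 higher in Rα+/+ mice. In RαTd/Td mice 3 were called lower (Il10ra, Il17ra and Il6ra) and 1 higher.

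Il10ra encodes the ligand-binding chain of the receptor for IL-10, an inhibitor of macrophage activation. It was 434 and 314 normalized counts in the PBS-treated Rα+/+ mice and 155, 150 and 151 after IL-4c. In RαTd/Td mice it was 445 and 468 after PBS and 136, 162, 260 and 218 after IL-4c. All 7 IL-4c-treated mice were below all 4 PBS-treated mice. It fell by 1.28 on the log2 scale in Rα+/+ mice (SE 0.25, limma adjusted p = 0.00257) and by 1.27 in RαTd/Td mice (SE 0.24, limma adjusted p = 0.0017). Relative to the median gene it fell by 1.10 and 1.04, and with each mouse centred by 0.99 and 0.94. Both falls stayed past the threshold under all 20 alternatives run.

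Il6ra encodes the chain that binds IL-6 and then joins with gp130 to signal. It was 479 and 415 normalized counts in PBS-treated Rα+/+ mice and 275, 325 and 254 after IL-4c, and 678 and 650 in PBS-treated RαTd/Td mice and 291, 348, 419 and 355 after IL-4c. The IL-4c-treated mice lay below the PBS-treated mice of their own genotype, although mouse 11 (419, RαTd/Td, IL-4c) exceeded mouse 2 (415, Rα+/+, PBS). It fell by 0.92 on the log2 scale in RαTd/Td mice (SE 0.16, limma adjusted p = 0.00103) and by 0.65 in Rα+/+ mice (SE 0.17, limma adjusted p = 0.00917). Relative to the median gene the falls were 0.69 and 0.48, and with each mouse centred 0.59 and 0.37. In Rα+/+ mice the call was lost when each mouse was centred on its median gene (log2 fold change -0.37), with quantile normalization (-0.36), with the methods' t-test after adjustment and without mouse 1 (-0.55).

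Il4ra encodes the receptor chain that IL-4 and IL-13 share, the receptor of the injected cytokine. It was 314 and 300.0 normalized counts in PBS-treated Rα+/+ mice and 197, 120 and 191 after IL-4c. The RαTd/Td mice had 359 and 464 after PBS and 193, 198, 225 and 288 after IL-4c. No IL-4c-treated mouse reached a PBS-treated mouse of either genotype. The falls were 0.89 (SE 0.24, limma adjusted p = 0.0142) in Rα+/+ mice and 0.87 (SE 0.23, limma adjusted p = 0.0109) in RαTd/Td mice on the log2 scale. With each mouse centred on its median gene they were 0.60 and 0.54. The fall in Rα+/+ mice was not called without mouse 1 (-0.85), without mouse 2 (-0.92), with quantile normalization (-0.62) or with the methods' t-test after adjustment. That in RαTd/Td mice was not called without mouse 4 (-0.68) or with quantile normalization (-0.50).

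Il3ra encodes the alpha chain of the receptor for IL-3, a growth factor of myeloid cells. It was 117 and 107 normalized counts in PBS-treated Rα+/+ mice against 58.4, 67.9 and 75.4 after IL-4c, and 127 and 116 in PBS-treated RαTd/Td mice against 85.7, 97.1, 73.3 and 70.0 after IL-4c. The PBS-treated and IL-4c-treated mice did not overlap. It decreased by 0.74 on the log2 scale in Rα+/+ mice (SE 0.16, limma adjusted p = 0.00455) and by 0.58 in RαTd/Td mice (SE 0.15, limma adjusted p = 0.0107). Centred on the median gene, the changes were -0.45 and -0.25, and with quantile normalization -0.38 and -0.27, and none of these was called. The RαTd/Td value was also not called without mouse 3 (-0.52) or with the methods' t-test after adjustment.

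Il17ra encodes the receptor chain common to several IL-17 cytokines. It was 233 and 184 normalized counts in PBS-treated Rα+/+ mice and 116, 131 and 122 after IL-4c. The RαTd/Td mice had 295 and 272 after PBS and 164, 112, 63.6 and 84.9 after IL-4c. The 7 IL-4c-treated mice were again all below the 4 PBS-treated mice. In RαTd/Td mice it fell by 1.50 on the log2 scale (SE 0.30, limma adjusted p = 0.00259), a call that was lost with the methods' t-test after adjustment. In Rα+/+ mice the log2 fold change was -0.75 (SE 0.32) and was not called (limma adjusted p = 0.082), but it passed the threshold without mouse 9 or mouse 11, which enter only through the shared estimate of the spread, and with the methods' t-test after adjustment. The difference between the genotypes in this response was -0.75 (95% interval -1.74 to 0.24, limma adjusted p = 0.455), so that the responses were not shown to differ. Within mice, the ratio of Il17ra to Il6ra lay between 0.403 and 0.487 in the 7 mice of the other groups. It was 0.562, 0.320, 0.152 and 0.239 in mice 9, 10, 11 and 12. Several such ratios were computed, and this ratio is given as a description without a test.

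Il15ra and Il1rap were measured in every mouse and were not called with IL-4c in either genotype. Il15ra encodes the chain that presents IL-15 to neighbouring cells. It was 93.3 and 92.2 normalized counts in PBS-treated Rα+/+ mice, 126, 75.2 and 108 after IL-4c, 135 and 143 in PBS-treated RαTd/Td mice and 97.1, 109, 124 and 138 after IL-4c, so that the treatments overlapped. Its log2 fold changes were 0.12 (95% interval -0.36 to 0.60) in Rα+/+ and -0.26 (95% interval -0.71 to 0.20) in RαTd/Td mice, the latter above 0 at 0.07 when mice were centred on the median gene and at 0.06 with quantile normalization. As a within-mouse ratio, Il15ra to Il10ra was 0.215 to 0.305 in the 4 PBS-treated mice and 0.477 to 0.815 in the 7 mice given IL-4c, and Il15ra to Il4ra was 0.297 to 0.375 and 0.478 to 0.640 in the same order. These ratios were chosen after the values had been seen and are given as a description.

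Il1rap encodes the accessory chain shared by the receptors for IL-1 and IL-33. It was 67.5 and 51.7 normalized counts in PBS-treated Rα+/+ mice, 48.1, 61.9 and 71.9 after IL-4c, 86.0 and 62.0 in PBS-treated RαTd/Td mice and 53.3, 58.9, 53.9 and 41.3 after IL-4c. The counts behind these values were 33 to 69 per mouse, which limits their precision. The log2 fold changes were 0.02 (95% interval -0.49 to 0.52) and -0.50 (95% interval -0.97 to -0.02, limma adjusted p = 0.0756) in Rα+/+ and RαTd/Td mice. Il1r1, the signalling receptor of IL-1, was above the floor only in mice 5 and 6, at 36.6 and 41.3 normalized counts. Il27ra, a chain of the IL-27 receptor, was between 32.3 and 63.6 in mice 2, 3, 7, 10, 11 and 12 and at the floor in the other 5, and was not called in any comparison.

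**Figure D2:**
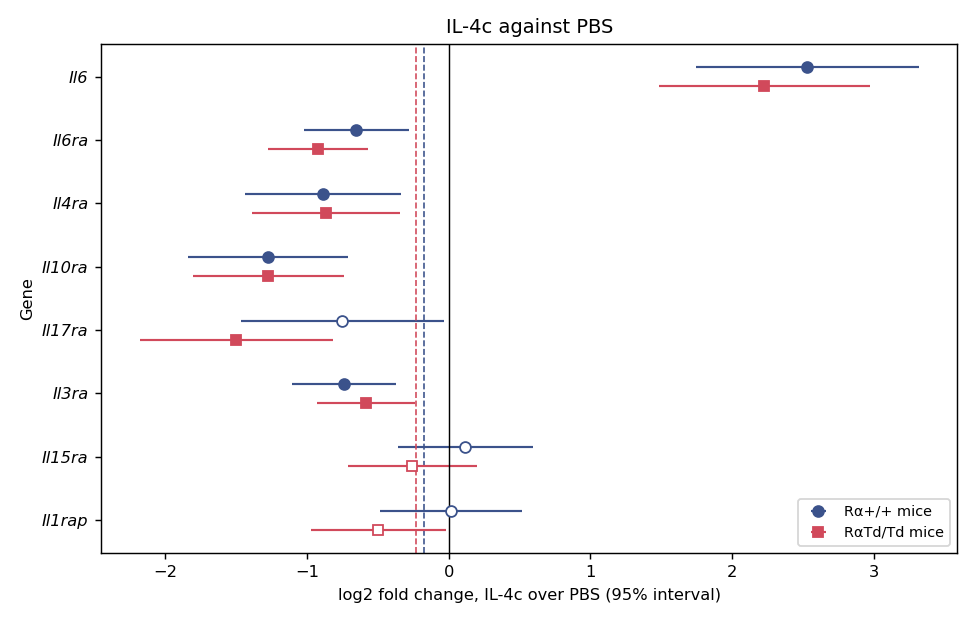
Log2 fold change of IL-4c over PBS for the same 8 genes in Rα+/+ mice (circles, 3 against 2 mice) and RαTd/Td mice (squares, 4 against 2 mice), with 95% intervals from limma. Filled symbols have an adjusted p of 0.05 or less, dashed lines are the medians of the 445 tested genes at -0.18 and -0.23, and the values of Il6 depend on the floor. Il6 lies to the right of 0 and Il10ra, Il4ra, Il6ra and Il3ra to the left in both genotypes.

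Other measures moved with treatment beside these receptor chains. Csf3r, the G-CSF receptor of neutrophils and monocytes, was 251 to 555 normalized counts in PBS-treated mice and at most 115 in IL-4c-treated mice. Of the other 5 neutrophil markers on the panel, Ly6g, Mpo and Elane were at the floor in all mice, S100a9 was above it only in mouse 9 at 31.4, and S100a8 was at most 82.5. With values at the floor taken as 0, the 6 summed to between 334 and 630 normalized counts after PBS and between 0 and 151 after IL-4c. Ms4a1, the B cell antigen CD20 and the single marker of 8 listed for B cells that the panel held, was 105 to 242 normalized counts in the 4 mice given PBS, 63.1 in mouse 12 and at the floor in the other 6 IL-4c-treated mice. The 3 T and NK cell markers and the 4 eosinophil markers on the panel were at the floor in all mice. Ccr2 was 175 to 353 normalized counts after PBS, 34.8 to 121 in IL-4c-treated Rα+/+ mice and 61.9 to 464 in IL-4c-treated RαTd/Td mice. Itgax and Flt3, the other markers of its list on the panel, were at the floor in all mice. Of the 9 macrophage markers, Csf1r was 2656 to 4018 normalized counts after PBS and 1532 to 2357 after IL-4c, Timd4 2567 to 4623 and 1044 to 1646, Cd14 1230 to 2066 and 307 to 847, and Mertk 429 to 749 and 198 to 442, each with no overlap. Fcgr1 was 162 to 220 after PBS, 64.3 in mouse 12 and at the floor in the other 6 IL-4c-treated mice. Gata6 was 503 to 712 after PBS and 536 to 654 after IL-4c, and Cd68 was 2394 to 3480 and 3253 to 5543. The 9 markers summed to between 28228 and 29851 normalized counts after PBS and between 25444 and 32085 after IL-4c. The part of these genes and cells in the falls was not tested. Positive control probes had a geometric mean of 853 to 1021 counts in PBS-treated and 301 to 623 in IL-4c-treated mice, whose part was not tested either. The 4 housekeeping genes used for scaling changed by -0.25 to 0.22 on the log2 scale with IL-4c, and none was called. Rpl19 in RαTd/Td mice was nearest to the threshold, at -0.25 (limma adjusted p = 0.053). The scaling fixed the mean of these genes in every mouse, so their changes cannot show whether the scaling itself shifted.

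**Figure D3:**
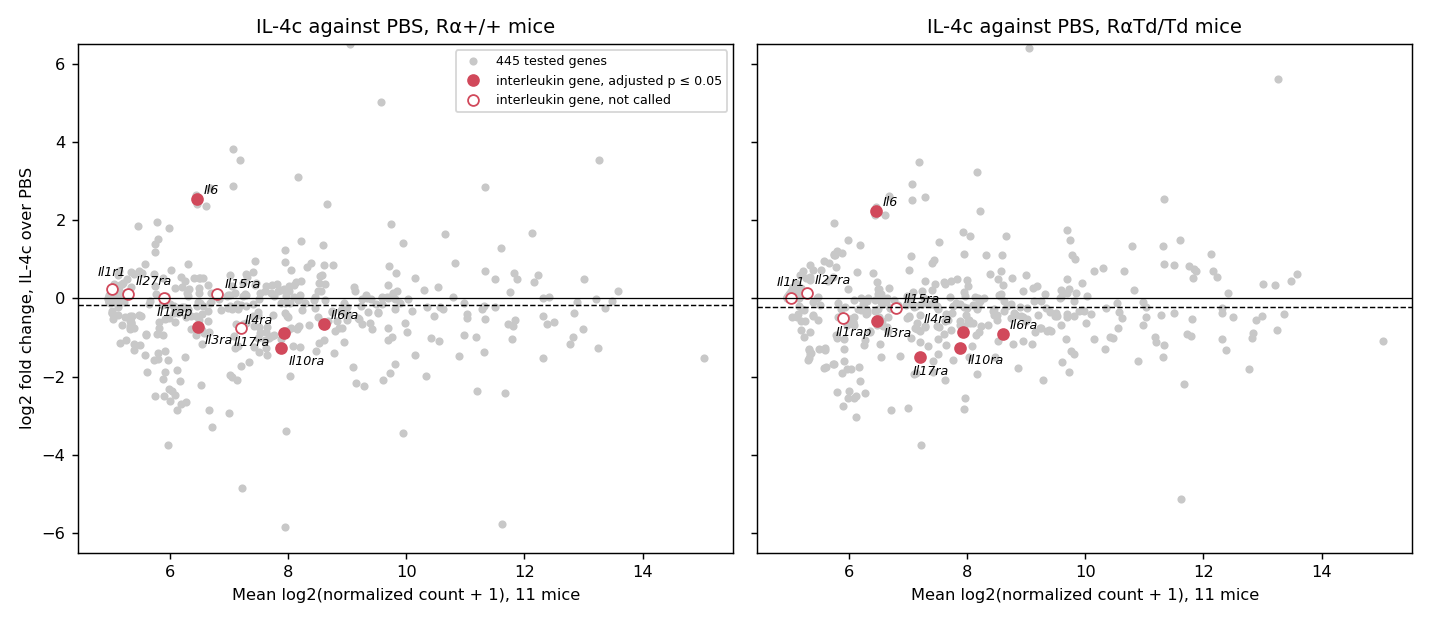
Log2 fold change of IL-4c over PBS against mean log2 level for the 445 tested genes in Rα+/+ (left) and RαTd/Td mice (right). Grey points are all tested genes, red points the 10 interleukin genes, filled where the adjusted p is 0.05 or less, and the dashed line is the median gene, with 2 genes in each panel beyond the axis. The called receptor chains lie between -0.58 and -1.50 and Il6 lies above 2.

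RαTd/Td and Rα+/+ mice were then compared within each treatment, to ask whether the loss of RELMα altered interleukin and receptor transcripts. After PBS, 8 interleukin genes were above the floor in at least 1 mouse, since Il6 and Il1r1 were at the floor in all 4 mice and could not differ. None of the 8 was called by limma, where 9.66% of all 445 genes were called, and 2 had an unadjusted p under 0.05 (Il6ra and Il15ra), as did 102 of the 445. After IL-4c, 0 of 10 were called, where 2.7% of all genes were called, and 1 had an unadjusted p under 0.05, as did 97 of the 445. That gene was Il1r1, which was near the floor in 2 Rα+/+ mice and at it in the other mice. The difference between the genotypes in the IL-4c response was called for 0 of 10, where 2.02% of all genes were called, and 0 had an unadjusted p under 0.05, as did 69 of the 445. The methods' t-test with adjustment called 0 of the 8 after PBS and 0 of the 10 after IL-4c. With 2 mice in each PBS group the intervals are wide, and a value that was not called is not shown to be equal.

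After PBS the largest values were those of Il6ra and Il15ra. Il6ra was 447 ± 45.6 (SD, n = 2) normalized counts in Rα+/+ and 664 ± 20.2 (SD, n = 2) in RαTd/Td mice. The log2 difference was 0.57 (95% interval 0.17 to 0.98, limma adjusted p = 0.088). Il15ra was 92.8 ± 0.72 and 139 ± 5.78 (SD, n = 2 each). This log2 difference was also 0.57 (95% interval 0.05 to 1.10, limma adjusted p = 0.17). Both RαTd/Td mice exceeded both Rα+/+ mice in each gene, and the same held for Il4ra, Il10ra and Il17ra. The log2 differences of Il4ra, Il10ra and Il17ra were 0.41, 0.30 and 0.45. How many of all tested genes separated in this way was not counted. When each mouse was centred on its median gene the differences in Il6ra and Il15ra were both 0.25, and that in Il10ra turned to -0.02. Those in Il4ra and Il17ra fell to 0.085 and 0.13. Over all tested genes the median difference was 0.10 and became -0.23 with that centring. 

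After IL-4c the genotypes overlapped in Il6, Il6ra, Il4ra, Il10ra, Il17ra, Il3ra, Il15ra and Il1rap. Il4ra was 169 ± 42.9 (SD, n = 3) normalized counts in Rα+/+ and 226 ± 43.5 (SD, n = 4) in RαTd/Td mice. The log2 difference was 0.43 (95% interval -0.03 to 0.89, limma adjusted p = 0.237). Il6ra was 285 ± 36.6 (SD, n = 3) and 353 ± 52.3 (SD, n = 4), with a log2 difference of 0.31 (95% interval -0.0036 to 0.62, limma adjusted p = 0.23). Centred on the median gene, these differences were 0.15 in Il4ra and 0.026 in Il6ra, and with quantile normalization 0.23 and 0.079. The response of Il10ra differed between the genotypes by 0.00 on the log2 scale (95% interval -0.77 to 0.78) and that of Il4ra by 0.02 (95% interval -0.74 to 0.78). The spread of single genes was wider in IL-4c-treated RαTd/Td than in Rα+/+ mice for Il10ra, with SDs of 55.6 and 2.29 normalized counts, and for Il17ra, with SDs of 43.2 and 7.75. It was narrower for Il15ra (17.7 and 25.7) and Il1rap (7.46 and 12.0) and alike for Il4ra (43.5 and 42.9). The SD of 2.29 is below the counting error, as the exact Poisson 95% interval of Il10ra in mouse 5 was 130 to 183. Among mice 9 to 12, mouse 9 held the lowest Il10ra and the highest Il17ra, and mouse 11 the highest Il10ra and the lowest Il17ra.

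**Figure D4:**
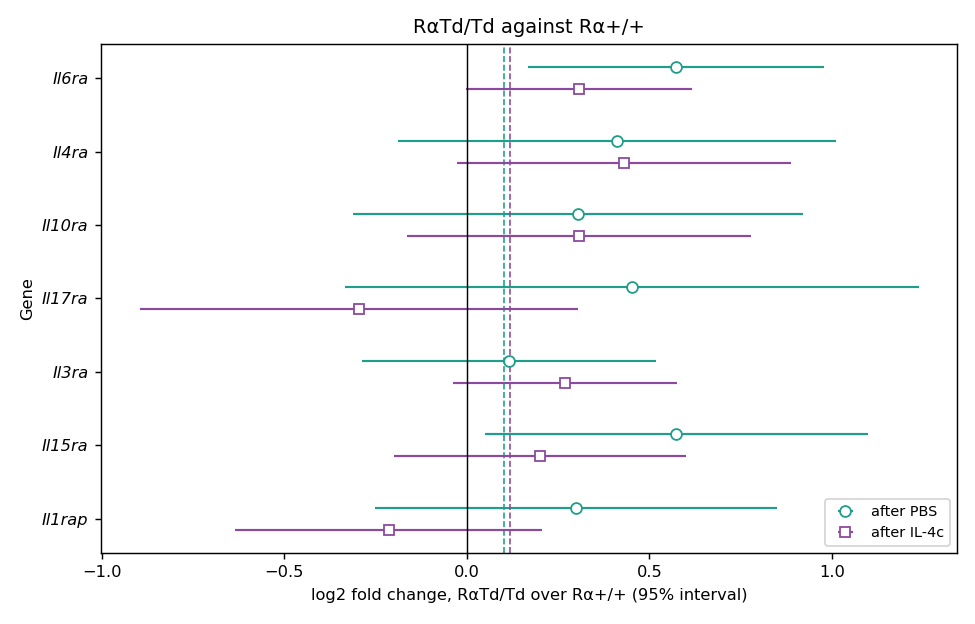
Log2 difference of RαTd/Td over Rα+/+ mice for the 7 interleukin receptor genes above the floor in all mice, after PBS (circles, 2 against 2 mice) and after IL-4c (squares, 4 against 3 mice), with 95% intervals from limma. All symbols are open because no difference reached an adjusted p of 0.05, and dashed lines are the medians of the 445 tested genes at 0.10 and 0.12. The interval of Il6ra after PBS runs from 0.17 to 0.98.

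Genes that act after the receptors were counted from lists. Of 19 genes of JAK-STAT signalling, 12 were on the panel and 10 were tested. In Rα+/+ mice 3 of the 10 were called with IL-4c, where 46.3% of all genes were called. With IL-4c 1 rose in Rα+/+ mice, Irf4, a transcription factor induced by IL-4 (0.55 on the log2 scale, limma adjusted p = 0.0277), and 2 fell, Stat6 and Stat5b. Stat6, which carries the IL-4 signal, was 584 and 483 normalized counts after PBS and 319, 380 and 361 after IL-4c in Rα+/+ mice (log2 fold change -0.59, limma adjusted p = 0.00613). In RαTd/Td mice it was 591 and 605 after PBS and 399, 445, 430 and 508 after IL-4c (-0.43, limma adjusted p = 0.0208). In RαTd/Td mice 0 of the 10 rose and 4 fell, where 15.3% of all genes were called higher and 36.6% lower. The genes that fell included Stat6, Stat5b and Socs3, a feedback inhibitor of IL-6 signalling that changed by -1.02 (limma adjusted p = 0.0029). The median of the list was -0.11 and -0.31 in Rα+/+ and RαTd/Td mice. After PBS, 2 of the 10 were called, higher in RαTd/Td mice, where 9.66% of all genes were called. Stat3, a carrier of the IL-6 and IL-10 signals, was 1 of these, at 0.42 (limma adjusted p = 0.0388). No gene of the list was called between genotypes after IL-4c, where 2.7% of all genes were called. Values of the signalling lists are given with the housekeeping scaling only. Centring on the median gene took the Il6ra difference after PBS from 0.57 to 0.25, and centred values of the lists are not given here.

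Of 14 genes of IL-1 and IL-18 receptor signalling, 4 were on the panel and tested, of which 1 was called with IL-4c in Rα+/+ and 2 in RαTd/Td mice, where 46.3% and 51.9% of all genes were called. Nfkbia, the inhibitor of NF-kB, fell with IL-4c by 1.06 in Rα+/+ and by 0.48 in RαTd/Td mice on the log2 scale (limma adjusted p = 0.000562 and 0.0246), Nfkb1 fell in RαTd/Td mice by 0.41, and the list medians were -0.43 and -0.44. No gene of this list was called between genotypes, where 9.66% of all genes were called after PBS and 2.7% after IL-4c. Among 10 chains and cytokines that pair with members but carry other names, Osm, an IL-6 family cytokine, was the 1 gene tested. It fell with IL-4c in RαTd/Td mice (-1.47 on the log2 scale, limma adjusted p = 0.00369) and was -0.29 in Rα+/+ mice, with the difference between the genotypes not called.

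Il1rl1 and Il1a, which were set aside at the start, were also at the floor in mice 1 to 4. After IL-4c Il1rl1 was 356 to 581 normalized counts in Rα+/+ mice and 107 to 383 in RαTd/Td mice. Its genotype difference after IL-4c was not called (log2 difference -0.89, limma adjusted p = 0.214). Il1a was 108 to 141 normalized counts in Rα+/+ mice and 40.0 to 68.2 in RαTd/Td mice after IL-4c. The genotypes did not overlap in Il1a (log2 difference -1.17, limma adjusted p = 0.00594). Whether the genotypes differ more in Il1a than in Il6 was not tested.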

How the data were processed

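Transcripts of macrophages sorted from the 11 mice analysed were counted in a single experiment with a Nanostring panel of 754 genes (Myeloid Innate Immunity v2). The authors lysed the cells, scaled the counts by 4 housekeeping genes (Rpl19, Oaz1, Gusb and Eef1g), and deposited linear signal in normalized counts with low values replaced by 30. Groups were taken from the labels.

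From these values, 1 factor per mouse (0.75 to 1.88) was recovered, and the values divided by it gave whole counts, within 0.1 count, for all values below 1000. A gene was tested where its mean over the 11 mice exceeded 30. Log2(normalized count + 1) was fitted by limma 3.58.1 (R 4.3.3) over all mice, with a coefficient for each group. The 5 comparisons were adjusted by Benjamini-Hochberg over all tested genes. Called means an adjusted p of at most 0.05. Each mouse is a separate animal. Both the groups of 2 to 4 mice and the counts per gene limit precision.

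Members, lists and tests were chosen with earlier results of these data known. Every member above the floor in at least 1 mouse is named. Those called in at least 1 comparison, or above the floor in every mouse of a group, are given for each mouse. Alternatives changed the filter, scaling, pseudocount, floor, moderation and test, or left out each mouse in turn. Promoter sequences came from RefSeq. The comparison of levels between genes was left out, since probe efficiencies differ. Some results of the signalling lists are not reported here.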

Additional observations from a re-analysis of the deposited data

How the results depend on the processing

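For IL-4c in Rα+/+ mice, 5 interleukin genes were called, and 4 when centred on the median gene. The Il1r1 call gained with that centring rests on floor values that the centring moved. The number called was 2 with quantile normalization (Il10ra and Il6) and 3 without mouse 1 (Il10ra, Il3ra and Il6). It was between 3 and 6 over the 11 analyses that left out a mouse. For RαTd/Td mice the count of 6 stayed within 1.5 times, and for the genotype comparisons and the difference in response it was 0 under every alternative run. Of 216 alternative values for called genes, 199 kept their call, 17 lost it and 0 reversed. The falls of Il10ra in both genotypes and of Il6ra in RαTd/Td mice, and the rises of Il6, kept their call wherever they were tested. Il6 was not tested with the filter of more than 30 in every mouse, nor Il3ra and Il1rap with a mean above 100. Calls lost with quantile normalization were Il3ra, Il6ra and Il4ra in Rα+/+ mice (-0.38, -0.36 and -0.62) and Il3ra and Il4ra in RαTd/Td mice (-0.27 and -0.50), and the cause was not tested. With the methods' t-test after adjustment, Il4ra and Il6ra in Rα+/+ and Il17ra and Il3ra in RαTd/Td mice lost their call, and Il17ra in Rα+/+ mice gained it (adjusted p = 0.0437, over all its alternatives 0.0203 to 0.351).

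Reversals occurred in genes that were not called. Centring on the median gene turned Il15ra with IL-4c in RαTd/Td mice to 0.073 (0.058 with quantile normalization), Il10ra, Il1rap and Il3ra between genotypes after PBS to -0.023, -0.026 and -0.21, and Il15ra and Il3ra between genotypes after IL-4c to -0.082 and -0.011. The difference in the Il10ra response was -0.0036 with a pseudocount of 10. With each mouse left out, ranges crossed 0 for Il15ra (-0.041 to 0.33) and Il1rap (-0.17 to 0.21) with IL-4c in Rα+/+ mice, Il15ra between genotypes after IL-4c (-0.0093 to 0.36), and the difference in response of Il10ra (-0.23 to 0.24) and Il4ra (-0.21 to 0.20). No paired analysis was possible because the groups share no replicate numbers. The test planned for whole counts was not run, since values at the floor have no count. Counts of 30 to 69 per mouse behind Il1rap, Il27ra and Il1r1 limit what can be seen there.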
